A study of Drosophila melanogaster with 2 samples.

Results

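Fat mobilisation was followed through 10 genes out of the 11256 with assigned reads in RNA from heads of adult females of the fruit fly (Drosophila melanogaster). The set was chosen by function, and a gene's reads were summed over all its RefSeq accessions. It holds a hormone gene (Akh), its receptor gene (AkhR), 4 lipase genes (bmm, Hsl, Lip4 and CG5966), 2 genes of lipid droplet surface proteins (Lsd-1 and Lsd-2) and 2 genes of triglyceride synthesis (Lpin and mdy). The last 2 build fat and do not break it down, so the set is wider than lipolysis.

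Wild-type flies (strain Canton-S, 3 to 5 days old) were either exposed to ethanol-saturated air for 15 min, by which time all were sedated, and then to ethanol-free air for 30 min, or to ethanol-free air for the whole 45 min as a control. A group was 1 library of poly(A) RNA from about 180 pooled flies. Assigned reads numbered 11763222 for control and 11027646 for ethanol. Replicates are thus lacking, and no p-value of the treatment can be given. Intervals are 95% intervals of counting error only, and do not cover differences between pools of flies or between library preparations. The RNA integrity number (a scale from 1 to 10) was 6.80 for control and 6.40 for ethanol RNA, and its effect and that of ethanol cannot be told apart.

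Fat is kept as triglyceride in lipid droplets, mostly in the fat body, the insect counterpart of liver and adipose tissue, part of which lies in the head. Adipokinetic hormone (AKH), a peptide related in action to glucagon, is made by neuroendocrine cells of the corpora cardiaca, next to the foregut, and acts on a G-protein-coupled receptor of fat body cells through cyclic AMP and calcium. Lipases then release fatty acids from the droplets, and perilipins on the droplet surface control their access. Brummer (bmm) and the AKH pathway are known as the main routes of fat mobilisation in this fly.

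How much of each transcript the reads covered differed widely among the members, which bears on what their counts stand for. CG5966 was counted on 1 accession (NM_132058), and its reads covered 98.1% of it for control and 94.9% for ethanol. Akh, also with 1 accession (NM_079194), was covered over 53.2% by 6 control reads and over 90.5% by 15 ethanol reads. In contrast, the main accession of Hsl (NM_137619, 3530 nt) was covered over only 8.13% of its length by 57 control reads, and that of bmm (NM_001169974, 2312 nt) over 17.5% by 163. A single read covered 100 bases in all 394 accessions that had 1 control read.

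The same split ran through the whole table. Among accessions with at least 50 control reads, the median coverage was 96.2% for genes with 1 accession (5467 accessions, quartiles 90.5% and 98.5%) and 26.8% for genes with more than 1 (1922 accessions, quartiles 16.7% and 42.8%). No source used here says how reads shared by several transcripts of a gene were treated. For the 8 members with more than 1 accession, the sums thus describe the covered stretches (265 to 469 bases in the most-read accession of Hsl, bmm and Lsd-2 in either library, for example), and whether their RPKM understates the gene was not tested. Of 39 transcripts annotated for the 10 genes in the Release 6 annotation, 25 had reads. The reads were placed on an older build, and whether the rest were in the reference that was counted is not known.

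**Figure D1:**
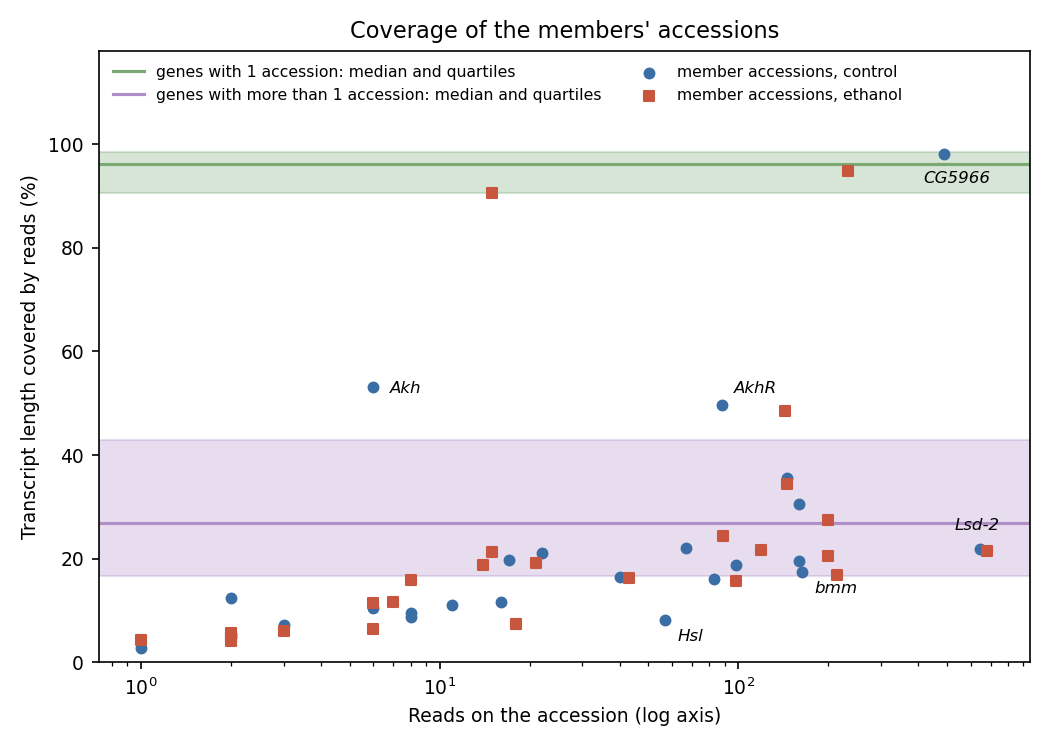
Percent of the transcript length covered by reads (vertical axis) against reads (log horizontal axis) for the 25 accessions of the members, control as circles and ethanol as squares, with labels beside control points. Bands and lines give the quartiles and medians of all accessions with at least 50 control reads; CG5966 lies at 98.1% and 94.9%, whereas the most-read accession of Hsl lies at 8.13% in the control.

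Of the 10 members, 8 had at least 50 reads over both libraries and are called measured here; Akh (21 reads in all) and Lpin (39) were below. A measured gene was called higher or lower when it was at least 2-fold changed and its interval excluded a ratio of 1. By this rule 1 member, Hsl, was lower after ethanol and 0 were higher, against 0.741% of all 7822 measured genes called lower and 1.75% called higher (2.49% in either direction). Intervals lay above 1 for 3 members (AkhR, bmm and Lsd-2), as for 23.9% of all measured genes, and below 1 for 2 (Hsl and CG5966), as for 15.0%. The median log2 ratio (ethanol over control) of the 8 measured members was 0.23, and that of all measured genes was 0.05. With so few members, and with 38.9% of all measured genes having an interval that excluded 1, these counts are given as a description. In tissue samples such as these, fewer cells of a type and less RNA per cell cannot be told apart.

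**Figure D2:**
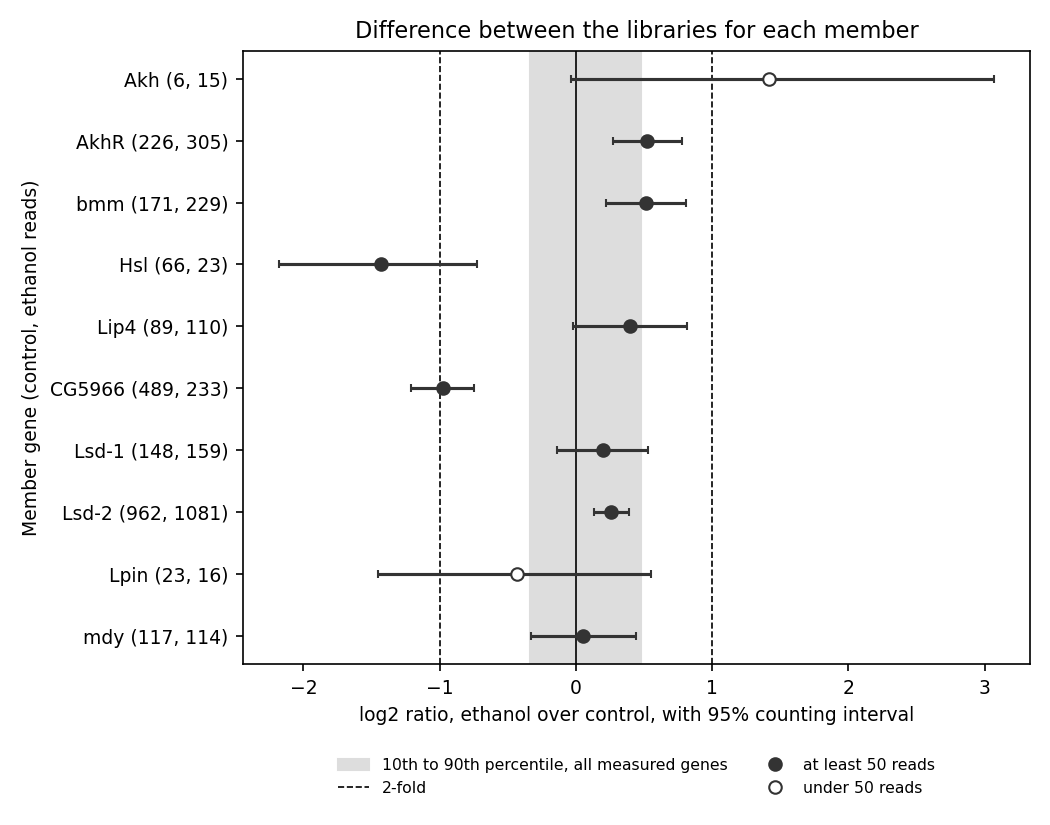
Log2 ratio of ethanol over control (horizontal axis), from reads scaled to library totals, for each member, with 95% counting intervals and the reads of both libraries beside the name. Filled points have at least 50 reads, dashed lines mark 2-fold, and the grey band spans the 10th to 90th percentile of all measured genes (-0.34 to 0.48). Among filled points, Hsl (-1.43) and CG5966 (-0.98) lie left of the band, and AkhR (0.53) and bmm (0.51) just right of it. The open points of Akh (1.42) and Lpin (-0.43) also lie outside the band.

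The hormone gene Akh had 6 control and 15 ethanol reads, or 0.952 and 2.54 RPKM (reads per kilobase of transcript and per 1000000 assigned reads). Both counts are small, and the ratio of 2.67 had an interval from 0.978 to 8.39, so by this interval no difference could be told from counting error. The p-value for Akh in the authors' deposited table was 0.0366, by a method not stated. Other genes of the list of AKH-producing cells had more reads. Lst, which encodes limostatin, a peptide known from the same cells that restrains insulin release, had 1456 and 1410 reads (ratio 1.03, interval 0.959 to 1.11). These far outnumbered the 6 and 15 reads of Akh, and which cells the Lst reads came from was not tested. The prohormone convertase gene amon, which neuroendocrine cells in general use, had 2612 and 2615 reads (1.07, 1.01 to 1.13). Whether the sieved heads carried the corpora cardiaca is not stated by the labels. The transcription factor gene gl, which photoreceptors also use, had 95 and 46 reads (0.517, 0.355 to 0.742).

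The receptor gene AkhR had 226 control and 305 ethanol reads, the higher level being that of the ethanol library. The ratio was 1.44 (1.21 to 1.72), which did not reach 2-fold. Reads were counted on 3 of its accessions. NM_164705, the longest, went from 88 to 143 reads (1.73, 1.32 to 2.29), whereas NM_058039 had 98 and 119 (1.30, 0.983 to 1.71) and NM_205917 had 40 and 43 (1.15, 0.728 to 1.81). NM_164705 was also the most widely covered, over 49.6% and 48.5% of its length. The ratio of NM_164705 was 1.34 times that of NM_058039, with an interval from 0.902 to 1.99, so a difference between these accessions was not detectable.

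The 4 lipase genes did not all lie on one side. The gene bmm, which encodes the fly counterpart of adipose triglyceride lipase, had 171 control and 229 ethanol reads. The ethanol library was the higher, at a ratio of 1.43 (1.17 to 1.75), not past 2-fold. Nearly all of its reads were on NM_001169974 (163 and 214), and the other accession, NM_140466, had 8 and 15 (interval of the ratio 0.796 to 5.45). The ratio of AkhR was 1.01 times that of bmm, with an interval from 0.768 to 1.32, so no difference between them was detectable.

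Hsl encodes hormone-sensitive lipase, which acts on diacylglycerol and other neutral lipids and is drawn to droplets by Lsd-1. It fell from 66 to 23 reads, a ratio of 0.372 (interval 0.221 to 0.606). Most of its reads were on NM_137619, with 57 and 18 reads (0.337, 0.187 to 0.581) over 287 and 265 covered bases. NM_166382 had 8 and 3 reads (0.400, 0.0684 to 1.67) and NM_166381 had 1 and 2, too few to tell apart. The share of measured genes past the rule in either direction was 3.92% of the 1839 with more than 1 accession, as Hsl has, and 2.06% of the 5983 with 1. With a floor of 200 reads Hsl is no longer counted and 0 members pass. With a pseudocount of 1 RPKM its log2 ratio was -0.70 in place of -1.43, short of 2-fold.

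CG5966, which encodes a protein of the pancreatic lipase family, had 489 control and 233 ethanol reads. The control library was the higher, and the ratio was 0.508 (0.433 to 0.595), just short of 2-fold. It passed the 2-fold rule with each of 3 other scalings, which put its log2 ratio as low as -1.04, against -0.98 by library totals. This is the member counted over nearly its whole transcript. Reads per covered kilobase were 192 (control) and 94.4 (ethanol).

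Lip4, which encodes a lipase related to the lysosomal acid lipases, had 89 control and 110 ethanol reads (1.32, 0.988 to 1.76). The interval of the sum included 1, whereas that of its main accession NM_135574 (67 and 89 reads) did not (1.42, 1.02 to 1.98). Its other accession, NM_001201856, had 22 and 21 reads, about level.

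Setting the members against each other does not depend on the scaling of the libraries. In 9 pairs of genes compared, with intervals not adjusted for the number of pairs, the ratio of bmm was 3.83 times that of Hsl (2.25 to 6.73) and 2.81 times that of CG5966 (2.17 to 3.65). The ratio of Hsl was 0.283 times that of Lip4 (0.155 to 0.504). Between Hsl and CG5966, the 2 members with intervals below 1, the ratios differed by a factor of 0.732 (0.423 to 1.23), which includes 1. Between bmm and Lip4 the factor was 1.08 (0.757 to 1.55). Within these 2 libraries, then, the ratio of bmm lay above those of Hsl and CG5966, and the ratio of Lip4 above that of Hsl, by more than counting error.

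Markers of other cell types also differed between the libraries, and their part in the values of Hsl and CG5966 was not tested. Of all measured genes, 1.75% were called higher and 0.741% lower. Intervals lay above 1 for 23.9% of them and below 1 for 15.0%, to set beside the marker counts. Fat body markers did not pass the rule. Of 11, 9 had reads and 8 were measured, whereas Fbp1 and CG31659 had no matched entry in the deposited data for either library. The summed level of these markers was 254738 RPM (reads per 1000000 assigned reads) for control and 247055 for ethanol. The yolk protein genes Yp1 to Yp3, made in the fat body and related to lipases in sequence, had log2 ratios from -0.05 to -0.03 and made up most of this sum. Of the 8 measured genes listed as fat body markers, 5 had intervals below 1 and 3 above it. Those above were to (1163 and 1930 reads, log2 ratio 0.82), Lsp1beta (543 and 864, 0.76) and tsl (83 and 121, 0.64). Whether the tsl reads came from the fat body was not tested. Among genes listed as hemocyte markers 1 of 4 passed, Col4a1 (135 and 51 reads, log2 ratio -1.31), and the sum was 248 and 199.95 RPM. Whether the Col4a1 reads came from hemocytes, the fat body or other cells was not tested. The median of the hemocyte markers was -0.44, with intervals below 1 for 3 and above 1 for 0. Among genes listed as oenocyte markers 1 of 2 measured passed, Cyp4g1 (60 and 2 reads, -4.81), with a sum of 89.18 and 90.05 RPM over 5 genes. The other measured gene, Cyp4g15, held most of this sum (82.29 RPM for control and 88.32 for ethanol). Its log2 ratio was 0.10, and its interval included 1. The sum thus mainly follows Cyp4g15, and whether the reads of Cyp4g15 came from oenocytes was not tested. The muscle markers summed to 1692 and 1261 RPM, with 7 of 8 measured and TpnC4 without a matched entry. Of these, 1 passed, fln, which rose (24 and 51 reads). The median log2 ratio of the measured muscle markers was -0.44, and intervals lay below 1 for 4 of them, Act88F (-0.69), Act79B (-0.58), sls (-0.44) and Mlc2 (-0.09), and above 1 for 2, fln and wupA (0.27).

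For the other cell types, the gut markers summed to 106 RPM for control and 93.7 for ethanol, with 4 of 8 measured and 0 passed. The protease genes Jon65Aiii, Jon99Fii and alphaTry had no matched entry in either library. The median log2 ratio of the measured gut markers was -0.16. Intervals lay below 1 for 2 and above 1 for 0, beside 15.0% and 23.9% of all measured genes. Neuron markers summed to 72.3 and 63.3 RPM (5 of 6 measured, 0 passed), with a median of -0.37. Intervals lay below 1 for 2 of them, Rdl (-0.73) and fne (-0.61), and above 1 for 0. Glial markers summed to 482 and 379 RPM (4 of 5 measured, 0 passed, moody without a matched entry). Of the 4 measured glial markers, Gs2, which held most of this sum, had a log2 ratio of -0.57, whereas Gat (0.59), Eaat1 (0.56) and repo (0.17) had intervals above 1, and the median was 0.36. The insulin-producing cells, which lie in the brain, were represented by Ilp2, Ilp3 and Ilp5 (0 of 3 passed, sum 146 and 168 RPM).

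On the droplet surface, Lsd-2 was the most abundant member in both libraries. It encodes perilipin 2, which shields stored fat, and had 962 control and 1081 ethanol reads. The ethanol library was slightly the higher, at 1.20 (1.10 to 1.31). All 3 of its counted accessions were on the same side: NM_132768 had 642 and 682 reads (1.13, 1.02 to 1.26), NM_001042812 had 160 and 200 (1.33, 1.08 to 1.65) and NM_001042811 had 160 and 199 (1.33, 1.07 to 1.64).

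Lsd-1 encodes perilipin 1, which both guards the droplet and, once phosphorylated, admits Hsl. It had 148 control and 159 ethanol reads (1.15, 0.910 to 1.44), so a difference was not detectable. Its accessions differed from each other. NM_170092 held 98.6% of the control and 91.2% of the ethanol reads, with 146 and 145, whereas NM_170093 had 2 and 14. The share of NM_170093 was 1.35% in the control (exact 95% interval 0.164 to 4.80%) and 8.81% in the ethanol library (4.90 to 14.3%). Its ratio was 7.01 times that of NM_170092, with a wide interval from 1.57 to 64.7. This pair was singled out after its values were seen, among 9 pairs of accessions compared with intervals not adjusted. Lsd-1 overlaps CG10214 on the opposite strand in the Release 6 annotation. CG10214 had 372 and 465 reads, and reads of the pair cannot be told apart if counting ignored strand, which is not stated. The ratio of Lsd-1 was 0.956 times that of Lsd-2 (0.747 to 1.22).

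Among the genes of triglyceride synthesis, mdy encodes diacylglycerol acyltransferase, the enzyme of the last step. It had 117 control and 114 ethanol reads, level between the libraries (1.04, 0.796 to 1.36). Beneath this sum, NM_135969 had 83 and 98 reads and NM_206002 had 11 and 1. The share of NM_206002 in the gene's reads was 9.40% in the control (exact 95% interval 4.79 to 16.2%) and 0.877% in the ethanol library (0.0222 to 4.79%). The ratio of NM_206002 was 0.0778 times that of NM_135969 (0.00177 to 0.555). The accession NM_165195 had 17 and 8 reads, and NM_165194 had 6 and 7. These accessions were singled out after their values were seen, among 9 pairs of accessions compared with intervals not adjusted. In the Release 6 annotation mdy overlaps Cse1 (367 and 329 reads) and CG13280 (40 and 36 reads), both on the opposite strand.

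Lpin encodes lipin, a phosphatidate phosphatase that makes diacylglycerol and also acts in the nucleus. It had 23 control and 16 ethanol reads, under the floor (0.742, 0.366 to 1.47). Reads fell on 4 of its 11 transcripts of the Release 6 annotation, and whether the others were in the reference that was counted is not known. NM_001201947 had 16 and 6 reads and NM_001201954 had 2 and 6, and the ratio of the first was 0.136 times that of the second (0.0106 to 1.02). Lpin overlaps kermit on the same strand, which had 9 and 6 reads. At these counts no difference was detectable for Lpin.

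**Figure D3:**
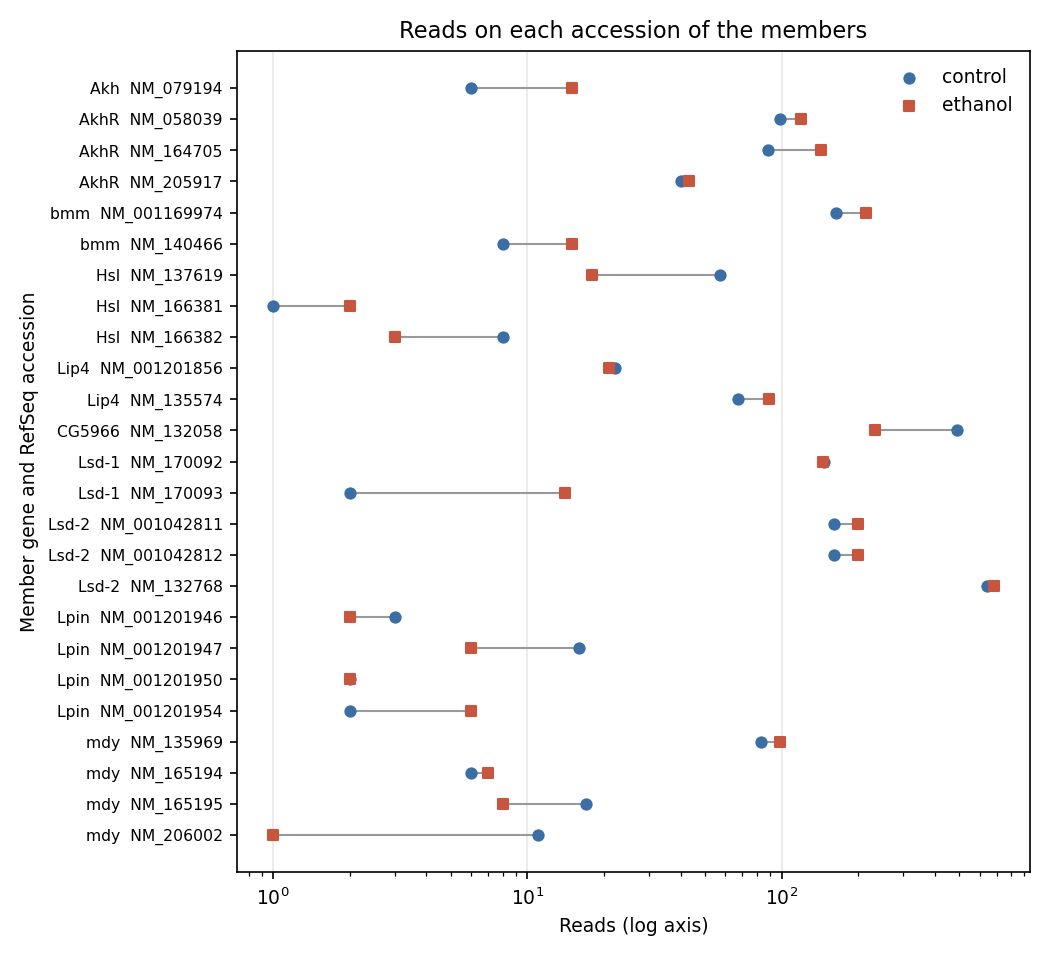
Reads (log horizontal axis) on each of the 25 RefSeq accessions of the members, control as circles and ethanol as squares joined by a line, not scaled for the library totals of 11763222 and 11027646. NM_206002 of mdy (11 and 1) and NM_170093 of Lsd-1 (2 and 14) lie far apart while the most-read accessions of the same genes nearly coincide.

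In the authors' deposited table, which tests the 2 libraries against each other by a method not stated, the lowest p-value among the 25 accessions was that of CG5966 (1.86e-18). Next came NM_137619 of Hsl (1.69e-05, authors' log2 ratio -1.57) and NM_164705 of AkhR (3.84e-05, 0.79) in the authors' deposited table. These p-values compare 2 libraries and not the treatment.

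The members spanned a wide range of levels. By summed RPKM, Lsd-2 stood first at 38.0 for control and 45.5 for ethanol. The intervals given with these levels cover counting error and not the unlike coverage of the members, so the order holds for RPKM only. In the control CG5966 came next at 16.0 (14.6 to 17.5), above AkhR at 8.64 (7.55 to 9.84). AkhR, Lsd-1 (6.66), bmm (6.27), Lip4 (4.80) and mdy (4.60) followed, and the intervals of each neighbouring pair among these 5 overlapped. Hsl (1.58, 1.23 to 2.02) lay below mdy (3.81 to 5.52), and Hsl, Akh (0.952) and Lpin (0.505) overlapped with their neighbours.

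In the ethanol library AkhR was second at 12.2 RPKM (10.9 to 13.6), above bmm at 8.95 (7.83 to 10.2). CG5966 followed at 8.12 (7.11 to 9.23), and its interval overlapped those of bmm and of Lsd-1 (7.80). Lip4 (6.33), mdy (4.87) and Akh (2.54, 1.42 to 4.19) came next, each overlapping the one above it. Hsl was at 0.588 (0.373 to 0.883), below Akh with separate intervals by RPKM, and Lpin was at 0.382.

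Levels per covered length gave another picture of the lipases. In the control, CG5966 was above bmm by RPKM, but NM_001169974 of bmm had 403 reads per covered kilobase against 192 for CG5966. NM_137619 of Hsl had 199, close to CG5966, although its gene's RPKM was far lower. In the ethanol library the 3 values were 546 for bmm, 94.4 for CG5966 and 67.9 for Hsl. Akh had 30.9 in that library, below Hsl, the reverse of their order by RPKM. Covered length is the stretch reached by at least 1 read, so it is itself bound to the number of reads.

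**Figure D4:**
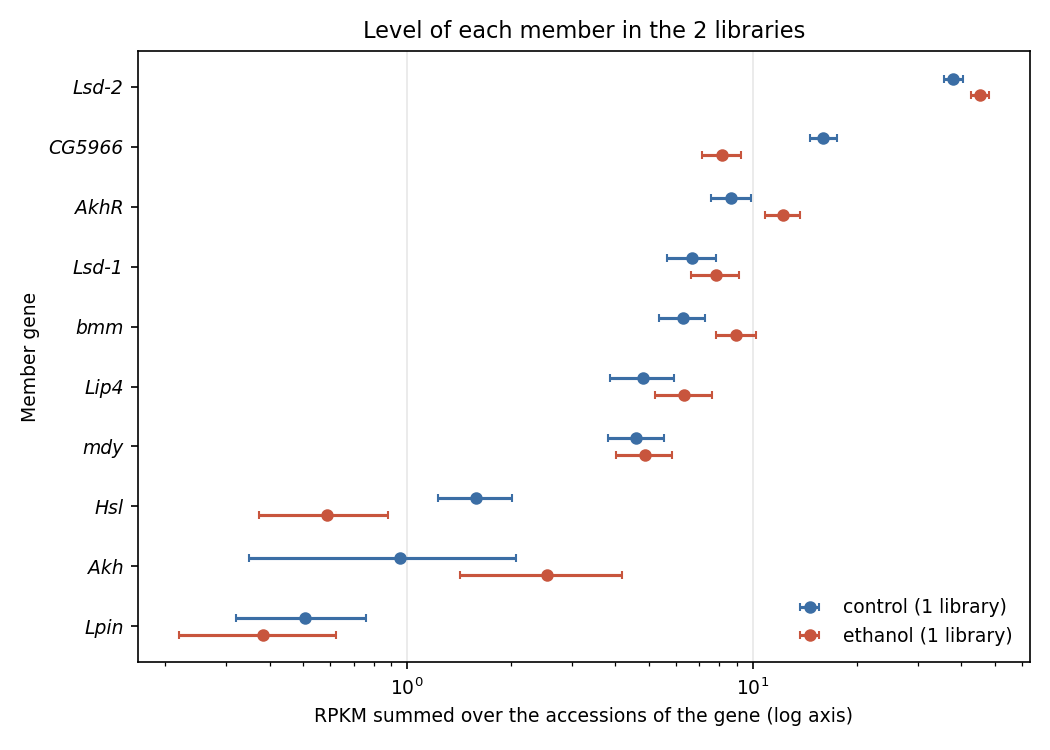
RPKM summed over a gene's accessions (log horizontal axis) for each member in the control and ethanol library, with 95% counting intervals, in the order of the control level. Lsd-2 lies at 38.0 and 45.5, and CG5966 (16.0 and 8.12) and Hsl (1.58 and 0.588) are the measured members whose ethanol point lies left of the control point with separate intervals.

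The rest of the pathway was read from 8 lists that leave out the 10 members. The shares of all measured genes to set beside their counts are 1.75% called higher, 0.741% called lower, 23.9% with an interval above 1 and 15.0% with one below. Downstream of the receptor, 18 of 26 genes were measured, 0 passed the rule, and the median log2 ratio was -0.01; intervals lay above 1 for 3 and below 1 for 6. CaMKI, a calcium-dependent kinase gene, had 166 and 269 reads (0.79), and Lkb1, a kinase gene upstream of the salt-inducible kinases, had 39 and 59 (0.69). The lowest were Crtc, a coactivator of CREB, with 734 and 476 reads (-0.53), and Sik2, a salt-inducible kinase gene, with 1253 and 865 (-0.44).

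Among genes of hormone release and of signals that reach the AKH cells, 15 of 21 were measured, 1 rose and 0 fell, and the median was 0.25. The gene that rose was daw, an activin-like ligand, with 112 and 227 reads (log2 ratio 1.11). CCHa2, a peptide hormone gene of fat body and gut, had 120 and 214 (0.93). AstA-R2, an allatostatin receptor gene, had 30 and 20 (-0.49), and sNPF, a neuropeptide gene, had 126 and 88 (-0.42). The intervals of 8 measured genes lay above 1 and that of 1 gene, sNPF, below it, beside 23.9% and 15.0% of all measured genes.

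Other lipase genes, of which 16 of 49 were measured, had 2 lower and 0 higher, with a median of 0.09, beside 0.741% of all measured genes called lower. The lower genes were CG31683 (76 and 27 reads, log2 ratio -1.40) and CG18641 (44 and 20, -1.04). The highest were CG6675 (117 and 197, 0.84) and CG18302 (68 and 98, 0.62). All 3 yolk protein genes had intervals below 1, as 15.0% of all measured genes did, and 0 passed. Their reads numbered from 673310 to 1251044 in each library, so that intervals excluded 1 at ratios from 0.963 to 0.982.

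Lipid droplet proteins were all measured (16 of 16), and 0 passed, with a median of 0.11 and values from -0.50 (gammaCOP, a coatomer subunit gene, 204 and 135 reads) to 0.33 (Pcyt1, a gene of phosphatidylcholine synthesis, 278 and 328). Rab18 was at 0.32 and Seipin, which shapes droplets, at -0.16. Triglyceride synthesis had 19 of 23 measured, 2 higher and 0 lower, with a median of 0.07. Those that rose were sug, a sugar-responsive transcription factor gene (1545 and 7119 reads, 2.30), and pdgy, an acyl-CoA synthetase gene (17 and 35, 1.13). ACC, the gene of the enzyme that makes malonyl-CoA, had 478 and 267 reads (-0.75), and Dgat2 had 53 and 40 (-0.31).

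Fatty acid oxidation and ketone use had 23 of 26 measured, 0 higher and 1 lower, with a median of 0.01. The lower gene was Pex5, the peroxisomal import receptor (50 and 14 reads, -1.74), and the next lowest was the acyl-CoA oxidase gene Acox3 (57 and 30, -0.83). Sirt4, a mitochondrial sirtuin gene, was at 0.82 (29 and 48 reads). Lipid carriers had 5 of 11 measured and 0 passed, with a median of 0.01. The carriers that ship lipid through the hemolymph did not pass, apolpp with 105354 and 84619 reads (-0.22) and Apoltp with 12643 and 8418 (-0.49). NLaz, a lipocalin gene, was at 0.30 and its relative GLaz at 0.13. These counts and medians describe the lists, and no list was tested.

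**Figure D5:**
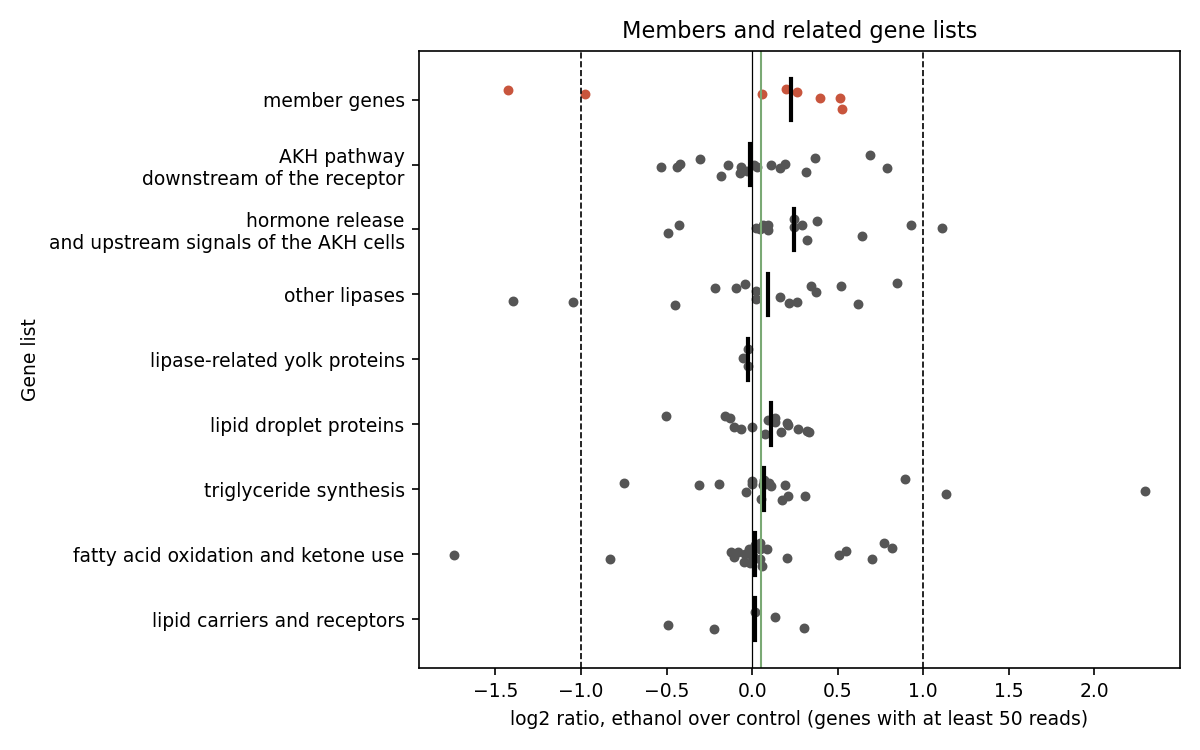
Log2 ratio of ethanol over control (horizontal axis) for every measured gene of the set and of 8 related lists, with list medians as short black bars, the median of all measured genes (0.05) as a green line and 2-fold as dashed lines. The highest point is sug at 2.30 and the lowest is Pex5 at -1.74.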

How the data were processed

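Poly(A) RNA from fly heads was measured in 1 control and 1 ethanol library. The authors deposited, per RefSeq accession, read counts (uniquely assigned), RPKM and the covered percent of the transcript, per the file headers, and a table of both libraries with a log2 ratio and a p-value per accession. Per the submitters' processing notes, reads were placed on build BDGP 5. No source used here names the aligner, the counter or the use of strand. The builds differ, so the RefSeq Release 6 annotation gave names, transcript numbers and neighbours but no coordinates. It matched 14521 of 15090 accessions and all 10 members.

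Reads were summed per gene (11256 genes) and scaled by library totals. With 1 library a group there is no test across replicates. Ratios have 95% Clopper-Pearson intervals, levels exact Poisson intervals, shares exact binomial intervals, and ratios of ratios exact conditional intervals, all for counting error only. For a gene with reads in only 1 library, the 0 of the other allows 0.255 RPM (control) or 0.272 RPM (ethanol), which is 3 reads. List genes at 0 in both libraries had no matched entry in the deposited data. Whether they were in the reference that was counted is not known, so this limit does not hold for them. The functions were tested on simulated data. Tools were Python 3.11.15, scipy 1.17.1, statsmodels 0.14.6 and edgeR 4.0.16 (TMM factors only).

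The members and lists were chosen with earlier results of these data known, and 17 older symbols were matched by hand. All members are named. From each list, genes past the rule and the 2 highest and 2 lowest measured genes are named, and others are given where a marker or neighbour bears on a member.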

Additional observations from a re-analysis of the deposited data

How the results depend on the processing

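With 1 library a group, no setting shows how pools of flies differ. No paired analysis was possible because each group has 1 library. The count of members past the 2-fold rule (1, Hsl) was 2 (Hsl and CG5966) with TMM scaling, with median-of-ratios scaling, with totals without the 10 most abundant genes and with a 1.5-fold threshold, and 0 with a floor of 200 reads or a 4-fold threshold. The members with an interval excluding 1 numbered 5, and from 4 to 6 in every alternative run. Over 11 alternatives each, 2 of them chosen after seeing the data, the log2 ratio kept its sign for every member but mdy (-0.01 to 0.33). Hsl ranged from -1.57 to -0.70, the latter with a pseudocount of 1 RPKM, CG5966 from -1.04 to -0.90, bmm from 0.45 to 0.52, and AkhR from 0.45 to 0.79, the latter on its accession with the most reads. List counts past 2-fold became 0 for other lipases and for fatty acid oxidation and 1 for triglyceride synthesis with a floor of 200 reads, and 2 for hormone release, 2 for lipid carriers and 3 (from 2) for triglyceride synthesis with a floor of 20 reads. With this floor the median of the lipid carriers was 0.21. With a floor of 50 reads and the mean in place of the median, triglyceride synthesis was at 0.23; the other list medians moved by at most 0.1. A floor of 200 reads removes genes with few reads by construction, and the cause of the other differences was not tested. Akh and Lpin were under the floor of 50 reads, and their intervals included a ratio of 1. What limited their counts was not tested.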

Other observations

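Several genes that bring fatty acids into cells had too few reads to count as measured. Fatp1, a fatty acid transport protein gene, had 10 control and 26 ethanol reads (log2 ratio 1.47), and the fatty acid binding protein gene fabp had 10 and 21 (1.16). Their relatives Fatp2 (12 and 13 reads) and Fatp3 (9 and 9) were about level. The lipophorin receptor gene LpR1 had 18 and 24 reads, and LpR2 had no matched entry in either library. These genes were singled out after their values were seen. Of the insulin-like peptide genes of the brain 0 of 3 passed the 2-fold rule and 2 had intervals above 1, as 23.9% of all measured genes did. Their values were Ilp5 at 427 and 519 reads (ratio 1.30, interval 1.14 to 1.48), Ilp3 at 510 and 547 (1.14, 1.01 to 1.29) and Ilp2 at 782 and 791 (1.08, 0.976 to 1.19).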
